A study of Mus musculus with 40 samples.

Results

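The genes described here encode 48 enzymes that write or erase marks on DNA and histones. They are the listed autosomal genes of 5 classes: 6 enzymes of DNA methylation, 9 histone deacetylases, 7 acetyltransferases, 15 histone methyltransferases and 11 histone demethylases. All 48 were found among the 55471 genes of the count table, and all 48 passed the filter on low counts that left 18441 genes to test.

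DNA methyltransferases put methyl groups on cytosine, mostly where it stands before guanine (a CpG), and the Tet enzymes oxidise them towards removal. Acetyltransferases and deacetylases set the acetylation of histone tails, which opens or closes chromatin, while methyltransferases and demethylases set lysine methylation, whose meaning depends on the residue. In neurons these enzymes take part in activity-dependent transcription, and several of them have been studied as carriers of lasting effects of early life.

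Messenger RNA was sequenced from punches of the ventral tegmental area, the midbrain region whose dopamine neurons project to the striatum and cortex, in adult mice. In Repeated Cross Fostering (RCF), pups were given to a different adoptive mother on each day from postnatal day 1 to 4, and the other mice were unhandled controls. The 8 groups of 5 libraries were male and female C57/Bl6 mice and male and female DBA mice, each with RCF or as controls, and the labels name no transgene or drug. The labels name neither the litter nor the animal behind a library nor the substrain, so the p-values speak of the scatter among libraries, which may be partly technical. RCF was applied to whole litters, and libraries of a group that share a litter would be fewer independent units than 5.

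Total counts ran from 16913124 to 28179071 per library, and Xist and the Y-linked genes went with the sex label in 40 of 40 libraries. The labelled region was checked by its defining markers. Th, which makes the precursor of dopamine, spanned 0.725 to 1640 CPM (counts scaled to the library total, with TMM factors) and lay under 100 CPM in 25 of 40 libraries. These were 8 of 20 C57 libraries and 17 of 20 DBA libraries, among them all 5 of DBA male RCF. Slc17a7, a marker of forebrain glutamate neurons, stood above 400 CPM of total counts in 4 libraries: C57 male control replicates 1 and 5, C57 female RCF replicate 4 and DBA female control replicate 3. The strain calls without those 4 libraries are given below. In such bulk tissue, fewer cells of a type and less RNA per cell cannot be told apart.

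Upstream sequences of Kmt2a, Kdm2b and Hdac9 are shown for the range of sequence in which the members start, from CpG-dense to CpG-poor. They were chosen because Kmt2a had the smallest p of all members in one RCF comparison, Kdm2b differed between control mice of the 2 strains, and Hdac9 had the fewest CpG of the members with an entry. Each run holds the 250 bases before a RefSeq start (GRCm38.p6, the reference and not the DBA sequence), with every CpG in capitals. Where a gene has several starts in the table, the one with the most CpG was taken: Kmt2a has 1 start, Kdm2b 4 and Hdac9 2, and those shown for Kdm2b and Hdac9 lie inside the annotated gene, downstream of its outermost start.
Kmt2a, chr9:44881290-44881539, minus strand: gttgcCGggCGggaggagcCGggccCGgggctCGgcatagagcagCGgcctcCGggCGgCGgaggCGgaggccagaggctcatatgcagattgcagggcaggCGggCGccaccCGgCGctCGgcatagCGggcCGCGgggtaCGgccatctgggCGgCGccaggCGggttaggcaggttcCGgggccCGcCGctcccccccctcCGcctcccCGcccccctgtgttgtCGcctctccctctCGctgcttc
Kdm2b, chr5:122900351-122900600, minus strand: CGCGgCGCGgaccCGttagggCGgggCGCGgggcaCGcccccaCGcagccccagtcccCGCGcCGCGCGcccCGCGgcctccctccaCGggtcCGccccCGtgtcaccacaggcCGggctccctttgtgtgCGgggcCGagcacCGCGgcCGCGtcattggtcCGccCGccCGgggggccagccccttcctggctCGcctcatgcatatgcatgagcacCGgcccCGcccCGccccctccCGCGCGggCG
Hdac9, chr12:34528890-34529139, minus strand: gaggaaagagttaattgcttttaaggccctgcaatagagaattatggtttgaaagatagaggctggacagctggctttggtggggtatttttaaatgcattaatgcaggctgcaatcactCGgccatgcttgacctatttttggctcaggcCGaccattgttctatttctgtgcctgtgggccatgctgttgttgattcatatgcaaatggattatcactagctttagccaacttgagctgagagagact
The runs hold 29, 38 and 2 CpG. Of the 48 members, 35 had an entry in the RefSeq promoter table, which covers 250 bases before to 50 after each start. With the start richest in CpG taken for each gene, their median was 31 CpG in that window, and 82.9% held at least 18 CpG, against a median of 21 CpG and 59.4% among the 12826 tested genes with an entry. The letters CG were counted in this window, where they read the same on either strand. Hdac9 and Kat2b were the poorest in CpG, with 3 and 11, and Tet2 and Kmt2c the richest, with 57 and 56. Methylation was not measured here.

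Levels are compared between genes per kilobase of annotated exon, as RPKM, and 36 of 48 members had a mean between 2 and 13 RPKM over the 40 libraries. Hdac11, a deacetylase known for high levels in brain, was the highest at 107 RPKM and ran from 53.6 to 126 RPKM over libraries. Next came Ehmt2 (also called G9a, which methylates H3K9) at 34.4 RPKM and the deacetylases Hdac3 at 24.9 and Hdac5 at 24.6 RPKM. Kat5 and Kat2a led the acetyltransferases with 23.0 and 22.9 RPKM, Dnmt1, the maintenance methyltransferase, led its class with 10.7 RPKM, and Kdm1a, which removes methyl groups from H3K4, led the demethylases with 11.7 RPKM. At the other end stood Dnmt3b, a de novo methyltransferase of the embryo, with 0.165 RPKM and 0 to 43 counts per library. Tet1 had 1.13 RPKM, Suv39h2 0.766, Ezh2, the catalytic subunit of Polycomb complex 2 in dividing cells, 0.736, and Kdm2b 1.67 RPKM. Ezh1, the form of that subunit found in resting cells, had 10.9 RPKM. The lowest deacetylase was Hdac9 with 2.50 RPKM and the lowest acetyltransferase was Kat6b with 2.84 RPKM. With the longest transcript in place of all exons, 40 of 48 members kept their rank within 5 places.

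**Figure D1:**
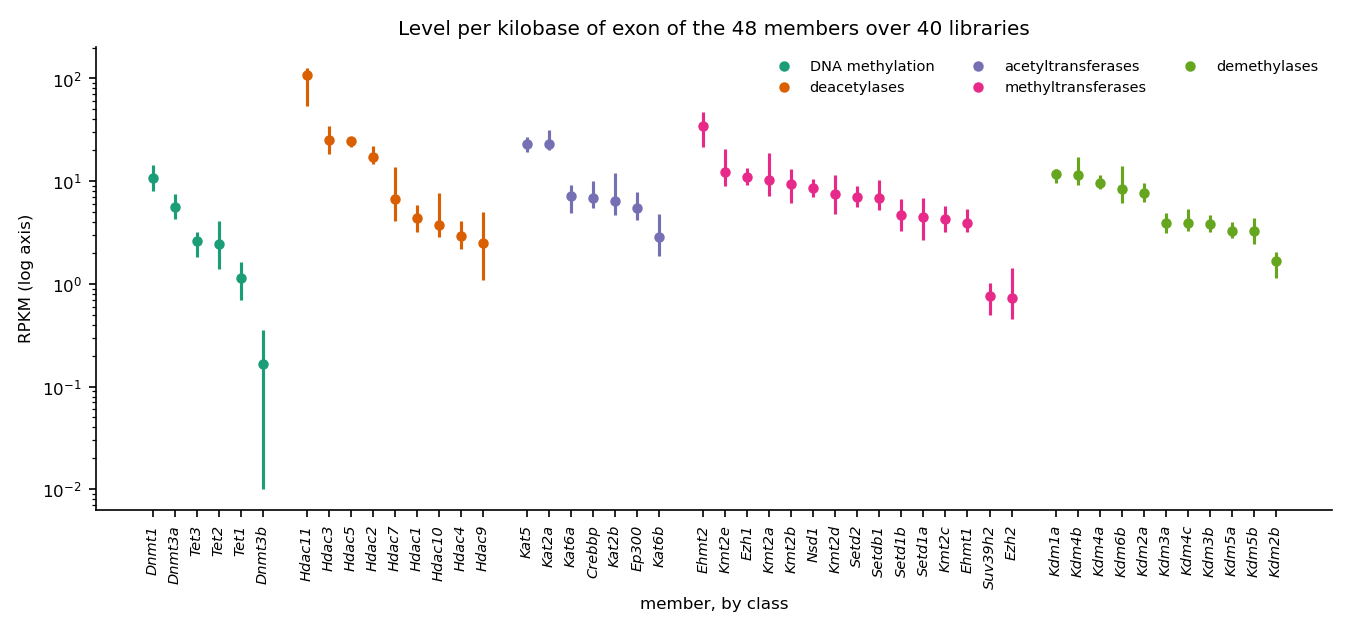
Mean level of each member in RPKM (points, log axis) with the range over the 40 libraries (lines), ordered within the 5 classes. Hdac11 stands at 107 RPKM and Dnmt3b at 0.165 RPKM; the library in which Dnmt3b had 0 counts is drawn at 0.01.

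Within groups the members varied little. The median SD of log2 CPM within groups was 0.158 over the members and 0.263 over all genes tested, and 44 of 48 members lay below that median of all genes. Hdac5, a deacetylase that leaves the nucleus on neuronal activity, was the steadiest with an SD of 0.08, and its libraries ran from 189 to 239 CPM. Hdac9 and Dnmt3b varied most, with SDs of 0.52 and 0.48, and Hdac9 ran from 15.9 to 73.5 CPM. Mean CPM was highest in a DBA group for 42 of 48 members, in DBA male control for 21 and in DBA male RCF for 14. In DBA male control replicate 4 (16913124 counts, the fewest), 33 of 48 members lay above their mean in the group's other libraries. Replicate 1 of that group also had 33, but a median deviation of 0.114 (log2) against 0.234. Replicate 4 set the order of the groups. Without it 40 of 48 were highest in a DBA group, 5 in DBA male control and 25 in DBA male RCF. The lowest mean was that of DBA female control for 16 members and of C57 female RCF for 11, with or without that library.

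Group means of the well-known members moved within narrow bounds. Those of Dnmt1 ran from 65.5 ± 4.99 CPM (SD, n = 5) in C57 female RCF to 89.6 ± 5.33 in DBA male RCF. Those of Dnmt3a, the de novo enzyme of adult neurons, ran from 82.2 ± 8.63 CPM in DBA female control to 104 ± 14.6 in DBA male control. Tet1 ran from 14.0 ± 2.19 in C57 female control to 21.4 ± 3.58 CPM in DBA male RCF, and Tet3 between the same groups from 40.1 ± 6.61 to 48.7 ± 2.93 CPM. Among the deacetylases, Hdac2 ran from 72.2 ± 4.55 in DBA male control to 84.4 ± 7.25 CPM in DBA female control, and Hdac5 from 206 ± 13.1 in DBA female RCF to 231 ± 7.04 CPM in C57 female RCF. Hdac11 ran from 364 ± 44.7 CPM in C57 male control to 438 ± 23.0 in DBA female RCF. The co-activator pair that acetylates H3K27 had its lowest and highest means in different groups. Crebbp ran from 87.2 ± 6.60 in C57 female RCF to 106 ± 20.03 CPM in DBA male control, and Ep300 from 66.5 ± 7.18 in DBA female control to 96.0 ± 5.32 CPM in DBA male RCF. With all libraries the mean was lowest in DBA female control and highest in DBA male control for Kat6b (41.4 ± 10.3 and 56.9 ± 14.6 CPM), Kmt2a (140 ± 14.5 and 219 ± 65.7 CPM), Ezh2 (4.05 ± 0.629 and 5.73 ± 2.16 CPM) and Kdm6b, which removes H3K27 methylation (49.7 ± 5.99 and 67.9 ± 19.0 CPM). Without DBA male control replicate 4 its means of these 4 genes were 50.9, 195, 4.79 and 60.7 CPM, and none of them was the highest, nor were those of Dnmt3a (98.8 CPM), Crebbp (99.2 CPM) and Ehmt2 (194 CPM). Kdm1a stayed between 57.1 ± 1.91 in C57 female control and 64.2 ± 3.499 CPM in DBA female RCF, and Kat5 between 77.2 ± 3.57 in C57 male control and 85.2 ± 8.84 CPM in DBA female control. Dnmt3b stayed between 0.658 ± 0.215 and 1.04 ± 0.358 CPM, Hdac9 between 29.7 ± 3.71 and 42.4 ± 11.5 CPM, Kat2b between 28.1 ± 4.92 in DBA female RCF and 38.9 ± 12.4 in C57 female RCF, Kdm2b between 16.1 ± 2.58 in C57 female RCF and 20.2 ± 0.908 in DBA male RCF, and Ehmt2 between 166 ± 29.0 CPM in C57 female RCF and 207 ± 41.9 in DBA male control.

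The strain comparison asks how these enzymes differ between DBA and C57 mice, first in controls and then in RCF mice. In controls 3 of 48 members passed the threshold of an adjusted p of 0.05 (edgeR quasi-likelihood test, Benjamini-Hochberg over all genes), where 16.0% of all genes did. Hdac1 was lower in DBA, and Kdm2a and Kdm2b, which remove methyl groups from H3K36 and bind unmethylated CpG, were higher. In RCF mice 19 of 48 passed, where 23.8% of all genes did, 17 of them higher and 2 lower in DBA. The members' median difference was 0.085 (log2, DBA against C57) in controls with 38 of 48 higher, and 0.16 in RCF mice with 41 of 48 higher, while the medians over all genes were 0.01 and -0.01. Exon length went along with this shift, and its part was not tested. Of all genes with at least 10000 nt of exon, 62.7% were higher in DBA RCF mice (median 0.07), against 47.9% of the shorter ones (median -0.01). In controls the shares were 60.5% and 50.7%. The 21 long members had medians of 0.099 in controls and 0.198 in RCF mice, and the 27 shorter ones 0.072 and 0.088.

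Hdac1 (chr4:129516104-129542713, minus strand, GRCm38), a class I deacetylase of co-repressor complexes, gave the firmest difference. In C57 controls its libraries read 12.9, 17.5, 17.5, 14.9 and 15.1 CPM in males and 18.8, 17.3, 18.4, 13.7 and 18.5 CPM in females. The male DBA controls read 12.5, 11.8, 12.6, 19.1 and 13.8 CPM and the female ones 11.1, 14.5, 11.7, 12.5 and 13.2 CPM. The strains overlapped in controls, with DBA male control replicate 4 above the other DBA libraries. In RCF mice the C57 libraries ran from 15.66 to 20 CPM and the DBA libraries from 11.3 to 15.63 CPM, which barely misses an overlap. In CPM of total counts they overlapped, with C57 male RCF replicate 3 at 15.28 and DBA female RCF replicate 3 at 16.04. The difference was -0.31 (log2, SE 0.078, adjusted p = 0.00389) in controls and -0.40 (SE 0.078, adjusted p = 0.00016) in RCF mice, and it passed the threshold in 27 of 27 alternatives of each comparison.

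Near-identical stretches of Hdac1 stand in 3 other annotated genes, and how reads that match several genes were counted is not given in the sources used here. Gm10093 matched it over 1444 nt at 99.4% identity, AC125456.1 over 1450 nt at 96.3%, and Gm4864 over 290 nt at 97.2%. Each had a lower mean in C57 than in DBA. Of total counts, AC125456.1 had 0.00843 ± 0.0173 CPM (SD, n = 20) in C57 and 0.439 ± 0.210 in DBA, Gm4864 had 0.0227 ± 0.0807 and 0.411 ± 0.256 CPM, and Gm10093 had 0.115 ± 0.0579 and 0.274 ± 0.168 CPM. With the 3 copies added to Hdac1, the strain difference was -0.21 (SE 0.0731, adjusted p = 0.0401) in controls and -0.30 (SE 0.073, adjusted p = 0.00255) in RCF mice, so the Hdac1 value alone is uncertain in size. Of 34 tested genes within 500000 nt of Hdac1 on either side, 5 were lower and 1 was higher in DBA in both comparisons, 17.6% against 16.0% of all genes in controls and 23.8% in RCF mice, the 5 being Ccdc28b, Dcdc2b, Iqcc, Khdrbs1 and Ptp4a2.

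In controls the other calls were slight. Kdm2b (chr5:122870665-122989823, minus strand) read 17.0, 15.9, 14.8, 18.8 and 16.1 CPM in C57 male controls and 17.2, 18.6, 17.4, 14.2 and 16.9 CPM in C57 female controls. The male DBA controls read 21.0, 17.2, 15.5, 21.5 and 19.6 CPM and the female ones 21.8, 18.2, 22.2, 19.98 and 16.6 CPM, so the strains overlapped. Its difference was 0.21 (SE 0.071, adjusted p = 0.0361), and it held in 7 of 20 fits that left out 1 library. Kdm2a (chr19:4314419-4398285, minus strand) ran from 94.8 to 112 CPM in the C57 controls and from 96.8 to 138 CPM in the DBA controls, differed by 0.13 (SE 0.046, adjusted p = 0.0473) and held in 5 of 20. The count of members passed in controls ran from 1 to 8 over those 20 fits, with 8 without DBA male control replicate 3, 6 without DBA male control replicate 2, 5 without C57 male control replicate 1, and 4 without DBA female control replicate 2 or 5. In 10 fits it was 1, Hdac1 alone. Over all genes, 2546 to 3327 passed in those 20 fits. Neither Kdm2a nor Kdm2b passed in controls without the 4 libraries with high Slc17a7, where Hdac1, Ehmt1, Hdac4 and Kat2a did, nor with the marker covariates described below, where Hdac1 and Kdm1a did.

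In RCF mice the demethylase Kdm2a had 98.4 to 114 CPM in C57 males, 91.5 to 118 in C57 females, 119 to 134 in male DBA mice and 113 to 125 CPM in female DBA mice. Its difference was 0.24 (SE 0.046, adjusted p = 0.000144). Ehmt1, the partner of Ehmt2 in H3K9 methylation, had 30.0, 29.4, 30.2, 28.9 and 31.8 CPM in C57 males and 28.8, 28.0, 28.9, 25.8 and 28.4 in C57 females. The DBA values were 34.8, 34.7, 36.0, 36.8 and 34.1 CPM for males and 35.8, 31.9, 33.3, 37.3 and 32.1 CPM for females, so that every DBA library stood above every C57 library. That difference was 0.26 (SE 0.056, adjusted p = 0.000667). In TMM-scaled CPM, libraries of the 2 strains did not overlap for 3 of 48 members in RCF mice, against 4.36% of all genes. These were Kmt2a and Ehmt1, higher in DBA, and Hdac1, lower and by a narrow gap. In controls it was 0 of 48, against 2.47%.

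By class, the RCF calls were 3 of 6 DNA methylation enzymes, 1 of 9 deacetylases, 3 of 7 acetyltransferases, 7 of 15 methyltransferases and 5 of 11 demethylases. Of all genes, 23.8% passed in this comparison, and the classes are too small to be set apart from that share. The first class gave Dnmt1 with 0.33 (SE 0.075, adjusted p = 0.00135), Tet1 with 0.35 and Dnmt3a with 0.17. Of the acetyltransferases Ep300 was higher in DBA by 0.31 (SE 0.071, adjusted p = 0.00119), Kat6b by 0.28 and Crebbp by 0.18. The methyltransferases Kmt2a, Kmt2c, Kmt2e, Nsd1, Setd2, Setdb1 and Ehmt1 were all higher in DBA, by 0.18 to 0.35. These include writers of H3K4 (Kmt2a, Kmt2c), H3K36 (Nsd1, Setd2) and H3K9 (Setdb1, Ehmt1). Of the demethylases, Kdm6b, Kdm1a, Kdm2a and Kdm2b were higher, and Kdm3a, which removes H3K9 methylation, was lower by 0.21 on the log2 scale (SE 0.062, adjusted p = 0.0103). Of the deacetylases, Hdac1 was the 1 call. These calls were not equally firm. Over 20 fits that each left out 1 library, Kdm1a held in 5, Crebbp in 9, Setdb1 in 11 and Kdm2b in 14. Kat6b held in 15, Dnmt3a in 17 and Kdm6b in 18, and the other calls in all 20.

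Levels of several marker lists moved with the strain comparison, and whether cell content did was not tested. The summed level of 11 markers of myelinating oligodendrocytes ran from 8880 to 24600 CPM in the C57 RCF groups and from 5880 to 15700 CPM in the DBA RCF groups. The 5 red blood cell markers summed to 20.3 to 61.3 CPM in the C57 RCF groups and 6.64 to 17.6 CPM in the DBA RCF groups, with no overlap, and the 10 listed mitochondrially encoded genes to 55700 to 68100 and 43300 to 58800 CPM. The part of the last 2 lists in the strain calls was not tested, nor whether their genes are counted alike in both strains. With the means of the dopamine neuron, oligodendrocyte and forebrain glutamate lists as covariates, 8 of 48 members passed in RCF mice, where 14.6% of all genes did: Kdm2a, Hdac1, Ehmt1, Ep300, Kmt2e, Nsd1, Kmt2c and Kdm1a. Dnmt1 then differed by 0.15 (adjusted p = 0.131), Kmt2a by 0.19 (adjusted p = 0.155) and Kdm3a by -0.18 (adjusted p = 0.0962). Leaving out DBA female RCF replicate 4 left 12 calls, and over the 20 single omissions 3668 to 4544 of all genes passed. Without the 4 libraries with high Slc17a7 there were 19 calls among the members, where 5093 of 18988 genes passed. Of those 19 calls 16 were shared, with Kdm1a, Kdm2b and Setdb1 lost and Ezh1, Hdac4 and Kdm5a gained. The test of whether the strain difference itself depended on RCF passed for 0 of 48 members, so 19 calls against 3 are not shown to differ.

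Related genes outside the 48 were counted by the same test. Of 36 other autosomal chromatin enzymes, 3 were higher and 4 lower in DBA controls (19.4%, against 16.0% of all genes), and 8 higher and 7 lower in DBA RCF mice (41.7%, against 23.8%). The largest by far was Tdg, the glycosylase that excises oxidised methylcytosine after the Tet enzymes, with -1.04 (SE 0.147, adjusted p = 1.17e-06) in controls and -1.28 (SE 0.148, adjusted p = 1.62e-08) in RCF mice. Near-identical copies were sought for the 48 members only. Whether Tdg has such copies, or is counted alike in both strains, was not tested. Of 50 tested partner subunits and readers, 5 were higher and 0 lower in controls, led by the bromodomain reader Brd2 with 0.26 (adjusted p = 0.00013), and 13 higher and 1 lower in RCF mice, which is 10.0% and 28.0% of the list. Of 9 X-linked enzymes, Hdac6 alone passed, in RCF mice, with 0.25 (adjusted p = 0.0361).

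**Figure D2:**
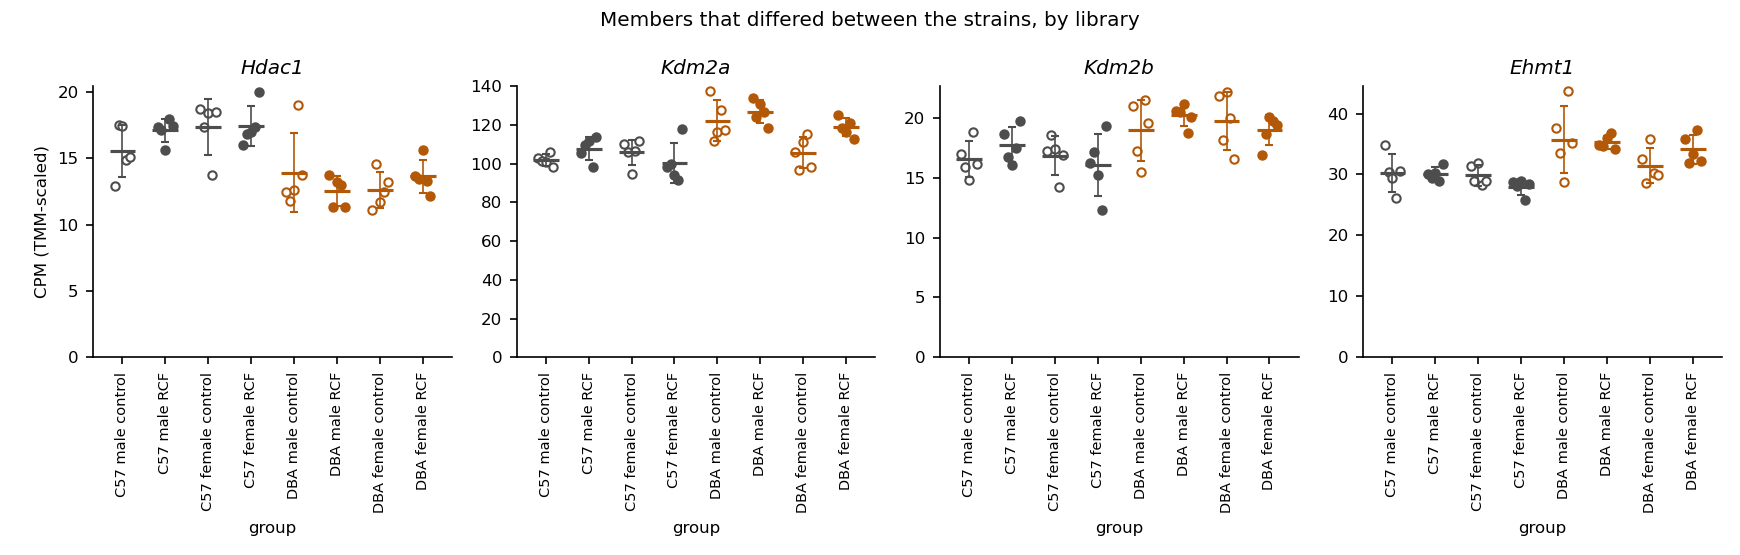
TMM-scaled CPM of Hdac1, Kdm2a, Kdm2b and Ehmt1 in each library (open points controls, filled points RCF, grey C57, orange DBA), with the group mean and SD as bars, axes from 0. Hdac1 lies lower in the DBA groups except for 1 DBA male control library at 19.1 CPM, and the Ehmt1 libraries of DBA RCF mice all lie above those of C57 RCF mice.

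The central comparison, RCF against control, found no member past the threshold in any stratum. With edgeR, 0 of 48 members passed in C57 males, C57 females, DBA males and DBA females, where 0.0108%, 0.00542%, 0.0163% and 0.0163% of all genes did. At an unadjusted p under 0.05, 0, 4, 2 and 19 of 48 members were counted, where 7.07%, 12.5%, 6.72% and 12.3% of all genes were. The median difference of the members was 0.03, -0.05, -0.03 and 0.15 (log2), and that over all genes -0.02, 0.01, -0.01 and -0.01. The median standard error of the members was 0.0998, 0.0999, 0.0997 and 0.0998 in these comparisons. Differences well above it did not pass either: in DBA females Kmt2a differed by 0.54 (SE 0.128, edgeR adjusted p = 0.171). Small differences were thus not detectable with these libraries.

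In C57 males 28 of 48 members were higher in RCF, and the smallest p belonged to Setd1a and Hdac11 on the higher side and Kat2b and Kdm3b on the lower side. Setd1a, a writer of H3K4 methylation, differed by 0.28 (SE 0.139, adjusted p = 0.713), though it shares exon on its own strand with the gene model Gm49388. Hdac11 differed by 0.24, Kat2b, an acetyltransferase of the SAGA complex family, by -0.32, and Kdm3b by -0.13. In C57 females 16 of 48 were higher, with only 1 of 15 methyltransferases among them. Kat2b stood at 0.44 (SE 0.166, adjusted p = 0.274), with 29.3, 32.2, 31.4, 59.0 and 42.4 CPM in RCF and 27.1, 31.7, 29.9, 27.8 and 26.8 CPM in controls. RCF replicate 4, one of the libraries with high Slc17a7, held the highest Kat2b value of all 40, and the groups overlapped. With the marker covariates the Kat2b difference in C57 females was 0.19. Dnmt1 (-0.27), Ehmt2 (-0.25) and Kdm4a (0.17) had adjusted p of 0.298, 0.351 and 0.315. In DBA males 21 of 48 were higher, and Ezh1 (0.15), Kdm3b (0.12), Kdm4c (-0.19) and Kdm3a (-0.16) led, with adjusted p from 0.742 to 0.793.

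**Figure D3:**
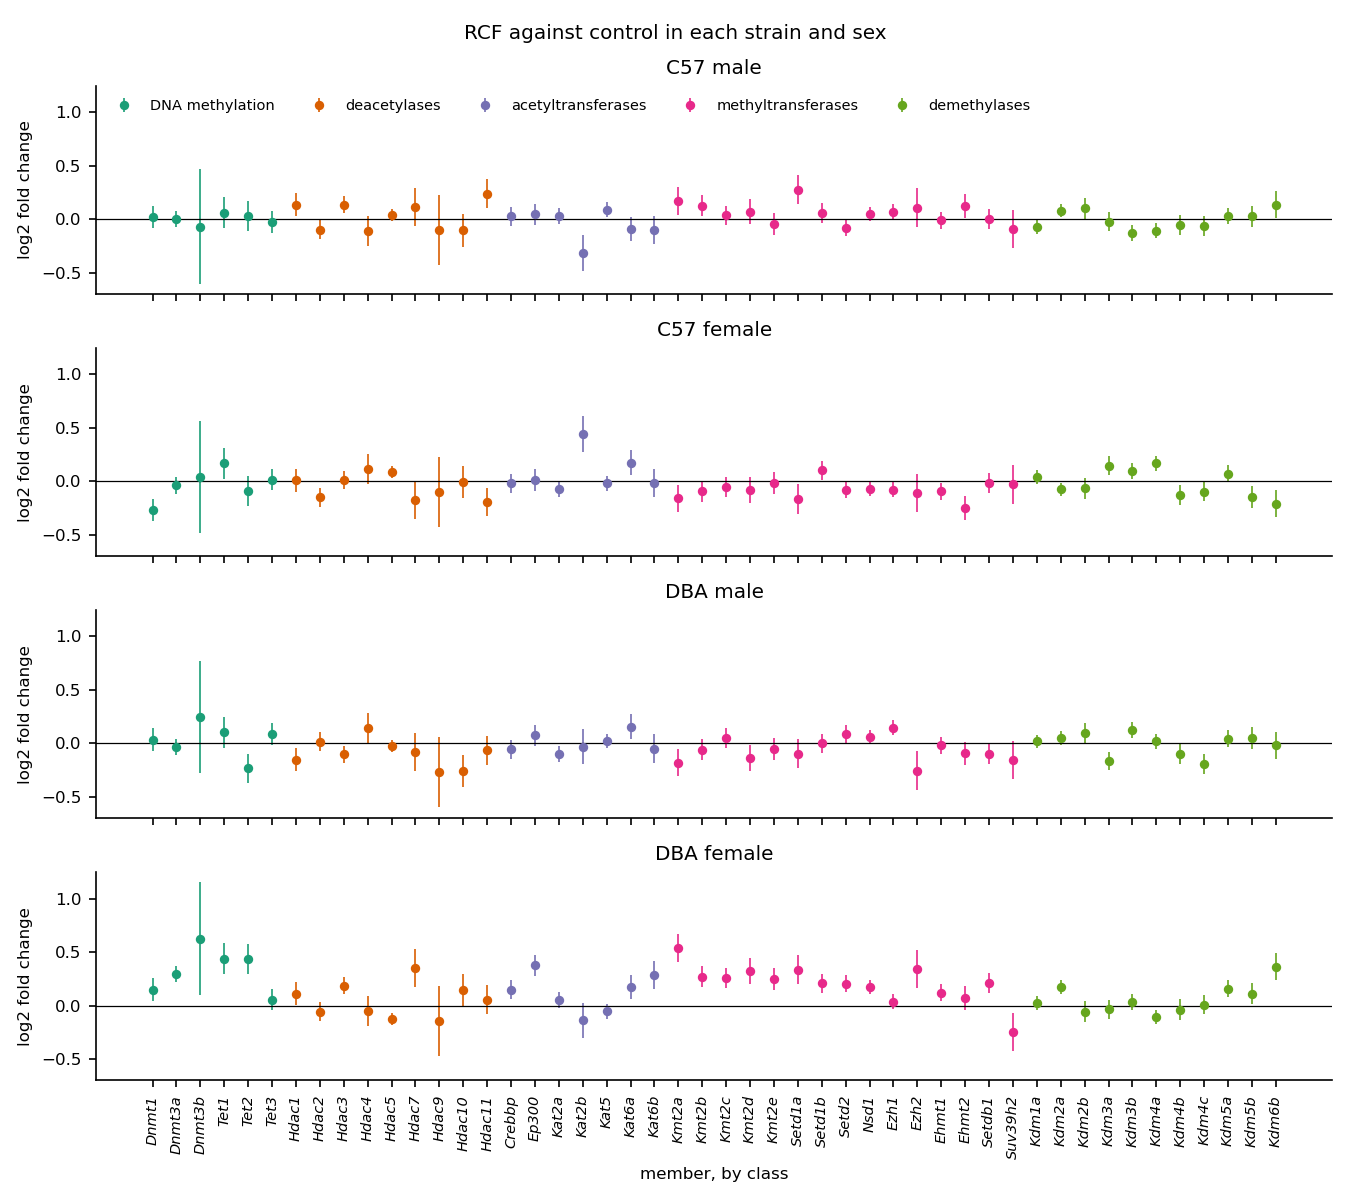
Log2 fold change of RCF against control (points) with its standard error (bars) for the 48 members in the 4 strain and sex strata, coloured by class. In DBA females 37 of 48 points lie above 0, and in C57 females 16 do.

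DBA females had the most members with a small unadjusted p, without a call by edgeR. There, 37 of 48 members were higher in RCF, 18 of the 19 with an unadjusted p under 0.05 among them. The class medians were 0.36 for DNA methylation enzymes (6 of 6 higher), 0.21 for methyltransferases (14 of 15), 0.15 for acetyltransferases (5 of 7), 0.06 for deacetylases (5 of 9) and 0.03 for demethylases (7 of 11). DBA female control replicate 5 bears on this count: without it 9 of 48 members had an unadjusted p under 0.05. In the other single-library omissions and alternatives the count ran up to 23.

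Kmt2a (chr9:44803355-44881296, minus strand), which writes H3K4 methylation at active promoters, had the smallest p. Its libraries read 206, 203, 190, 221 and 194 CPM in DBA female RCF and 154, 130, 144, 150 and 119 CPM in DBA female control. The difference was 0.54 (SE 0.128, adjusted p = 0.171). Dnmt3a read 108, 92.6, 102, 105 and 97.1 CPM in RCF and 89.1, 90.8, 74.7, 84.9 and 71.6 CPM in controls, a difference of 0.29 (SE 0.077, adjusted p = 0.201). Ep300 read 91.1, 83.5, 80.8, 92.8 and 82.7 CPM in RCF and 63.7, 61.2, 77.0, 70.5 and 59.8 CPM in controls, a difference of 0.37 (log2, SE 0.0999, adjusted p = 0.201). In these 3 genes every RCF library stood above every control library. Ep300 was named after its values were seen. Such a gap without overlap was found for 3 of 48 members, near the 4.29% of all genes, and for 0 of 48 in C57 males, C57 females and DBA males, where 0.938%, 2.51% and 0.629% of all genes had one.

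The call rests on the tool. DESeq2 passed Kmt2a (0.55, adjusted p = 0.0317) and Dnmt3a (0.30, adjusted p = 0.0481) in DBA females, where it called 54 genes, 0.352% of those it tested. Over all 17 alternatives the difference of Kmt2a ran from 0.43 to 0.58 with adjusted p from 0.0317 to 0.432, and that of Dnmt3a from 0.25 to 0.33 with adjusted p from 0.0481 to 0.48. On the lower side Hdac5 (-0.12, adjusted p = 0.364) and Kdm4a (-0.11, adjusted p = 0.529) had the smallest p.

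Other measures moved with the DBA female contrast, and their part in it was not tested. The mean log2 CPM of 7 pan-neuronal markers ran from 8.86 to 9.16 in RCF and from 9.17 to 9.55 in controls, which do not overlap, and their summed level from 4560 to 5480 and from 5190 to 6610 CPM. The 10 listed mitochondrially encoded genes summed to 43300 to 58800 CPM in RCF and 52000 to 68600 CPM in controls. Gene length moved too: among all genes with at least 10000 nt of exon, 62.6% were higher in RCF with a median of 0.06, and among the shorter genes 46.3% with a median of -0.02. The 21 long members had a median of 0.20 and the 27 shorter ones of 0.07. The mean log2 CPM of the oligodendrocyte list averaged 8.38 in RCF and 8.79 in controls, with overlap (7.66 to 9.05 and 8.06 to 9.08). Both without and with the marker covariates, 35 members were higher in RCF, and 16 had an unadjusted p under 0.05.

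The same genes in the other groups show where that control group lies. DBA male controls read 239, 148, 167, 315 and 226 CPM for Kmt2a, a wide spread that covers the RCF males at 204, 177, 199, 200 and 185 CPM. There Kmt2a differed by -0.18 (SE 0.128, adjusted p = 0.815). In C57 mice it differed by 0.17 in males and -0.16 in females. The DBA female control mean of 140 CPM was the lowest of the 8 groups for Kmt2a, and the same holds for Ep300 and Dnmt3a.

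**Figure D4:**
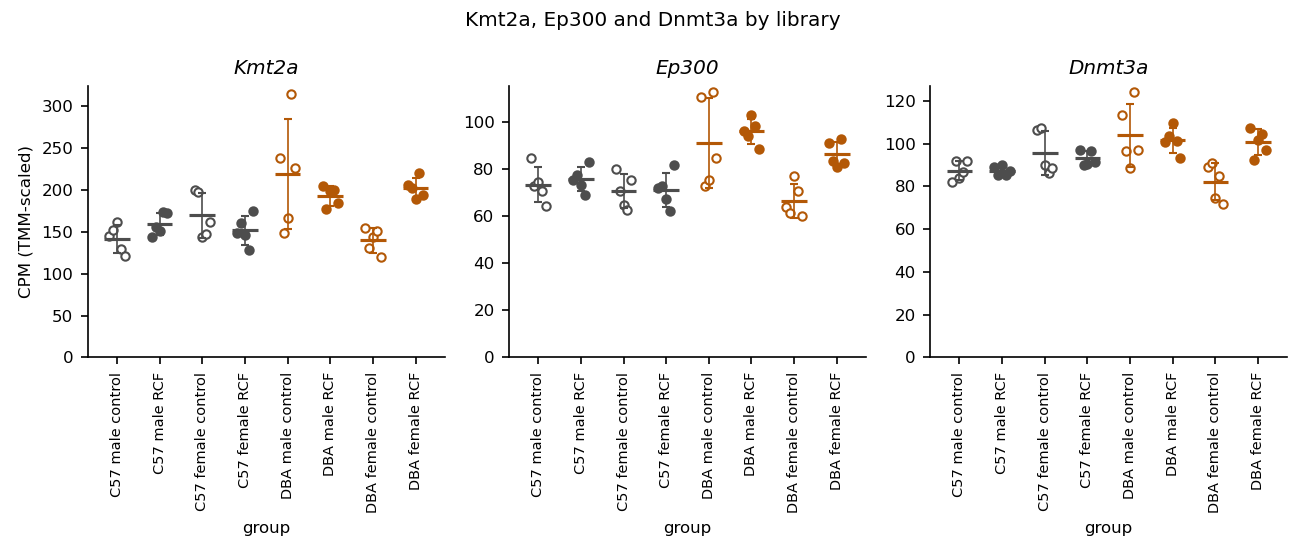
TMM-scaled CPM of Kmt2a, Ep300 and Dnmt3a in each library (open points controls, filled points RCF, grey C57, orange DBA), with the group mean and SD, axes from 0. In DBA females the 5 RCF libraries of each gene lie above the 5 controls, and the DBA male controls spread widely, up to 315 CPM for Kmt2a.

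Averaged over the 4 strata, 0 of 48 members passed, where 0.0217% of all genes did. Tet1, which oxidises methylcytosine, was highest by p with 0.19 (SE 0.072, adjusted p = 0.688), then Ep300 with 0.13 (SE 0.05, adjusted p = 0.69), and Kdm4c and Kdm4b had -0.09 and -0.08. The RCF effects of the 2 strains were compared directly, and 0 of 48 members passed, where 0.0108% of all genes did. The nearest were Setd2, which trimethylates H3K36, with 0.23 (SE 0.082, adjusted p = 0.807) and Dnmt1 with 0.22, higher in DBA, and Hdac5 with -0.13 and Kdm3a with -0.16. Between the sexes 0 of 48 passed, where 0.00542% of all genes did, and Tet2 (0.27), Kat2b (0.32), Ezh1 (-0.13) and Kdm2b (-0.16) had adjusted p from 0.592 to 0.679. Each of these comparisons averages over the other factor, so neither sets DBA females alone against the other strata. Whether the larger shift in DBA females differs from them was not tested. Of the 36 other enzymes, 50 partners and readers and 9 X-linked enzymes, 0 passed in any comparison of RCF with control or between RCF effects, and in DBA females their counts with an unadjusted p under 0.05 were 3, 8 and 0.

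Females and males were compared within controls and within RCF mice, and edgeR passed no member in either. Among controls 0 of 48 passed, where 0.0922% of all genes did, and among RCF mice 0 of 48, where 0.0759% did. In controls 35 of 48 members were lower in females, the median was -0.10, and 16 had an unadjusted p under 0.05, where 10.3% of all genes did, with 16 of 16 lower in females. Gene length moved with this contrast: of all genes with at least 10000 nt of exon, 25.7% were higher in females with a median of -0.08, against 49.0% of the shorter genes. The 21 long members had a median of -0.13 and the 27 shorter ones of -0.07, and the part of length was not tested. Kmt2e differed by -0.29 (SE 0.073, adjusted p = 0.146), Ep300 by -0.26 (SE 0.071, adjusted p = 0.169) and Kat6b by -0.32 (SE 0.094, adjusted p = 0.18), while Hdac2 (0.12) and Hdac5 (0.07) led the higher side. Kat6b was named after its values were seen: without DBA female control replicate 3 it differed by -0.40 (adjusted p = 0.0377). DESeq2 passed Kmt2e (-0.29, adjusted p = 0.0478), where it called 0.294% of the genes it tested. Each passed in 1 of 27 alternatives. Kat6b ran from -0.40 to -0.24 (adjusted p up to 0.6) and Kmt2e from -0.32 to -0.22 (adjusted p up to 0.565). DBA male control replicate 4 read 81.1 CPM for Kat6b, where its group's other libraries ran from 44.5 to 60.0. For Kmt2e it read 213 CPM against 123 to 165. This comparison uses the DBA female controls that also enter the DBA female RCF contrast and the strain contrast, so these results are not independent. In RCF mice 1 member had an unadjusted p under 0.05, Kdm2a with -0.10. Suv39h2 had -0.25 there, and Hdac3 and Kat2b had 0.09 and 0.16, with adjusted p from 0.678 to 0.78. The X-linked demethylases Kdm5c and Kdm6a, which escape X inactivation, were higher in females as a check on the labels: Kdm5c by 0.42 (adjusted p = 9.7e-07) in controls and Kdm6a by 0.57 (adjusted p = 2.16e-05) in RCF mice.

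Within groups, members were set against the levels of marker transcripts. Cell content itself was not measured. Each library's deviation from its group mean was set against the deviation of 3 marker lists, giving 144 relations over 40 libraries, with two-sided permutation within groups and Benjamini-Hochberg adjustment over the 144. All values are shares of one library's counts, so they are not free of each other. With the myelinating oligodendrocyte list, 1 member was positive and 15 were negative past the threshold by both Pearson and Spearman, all with the same sign in each strain. At an r of 0.5 or more in size, 2.08% of members were positive and 33.3% negative, and over all genes tested outside the list 7.48% and 6.7%. Kat2b was the positive one, with r = 0.811 and rho = 0.841 (adjusted permutation p = 0.00048 and 0.00096, n = 40), 0.841 in C57 alone and 0.797 in DBA alone. Without the 2 libraries farthest on the list r was 0.783. Ehmt2 was the strongest negative, with r = -0.765 and rho = -0.791 (adjusted permutation p = 0.00048 and 0.00096), and -0.715 without the 2 farthest libraries. Kmt2a had r = -0.59 and rho = -0.528 (adjusted permutation p = 0.0106 and 0.0214).

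With the pan-neuronal list, Hdac4, a class IIa deacetylase shuttled by neuronal calcium signals, was positive with r = 0.726 and rho = 0.554 (adjusted permutation p = 0.00514 and 0.0146). It weakened to 0.581 without the 2 farthest libraries, C57 female RCF replicate 4 and DBA male control replicate 4. Of all genes outside this list, 9.39% had an r of at least 0.5 and 7.87% of at most -0.5, and of the members 4.17% and 12.5%. Negative past the threshold were 6 members, among them Hdac11 with r = -0.746 and rho = -0.656 (adjusted permutation p = 0.00403 and 0.00192), Kdm6b with r = -0.648 and rho = -0.632 (adjusted permutation p = 0.00216 and 0.00234) and Kmt2a with r = -0.629 and rho = -0.611 (adjusted permutation p = 0.00288 and 0.00368). Without the libraries with high Slc17a7, r was -0.518 for Hdac11, -0.64 for Kdm6b and -0.722 for Kmt2a. With the dopamine neuron list 2 members passed, both negative: Hdac2 with r = -0.667 and rho = -0.695 (adjusted permutation p = 0.00048 and 0.00096) and Tet3 with r = -0.525 and rho = -0.618 (adjusted permutation p = 0.00872 and 0.00192). Without the 2 farthest libraries r was -0.658 and -0.523. Of members 8.33% and of all genes outside the list 5.05% had an r of at most -0.5.

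**Figure D5:**
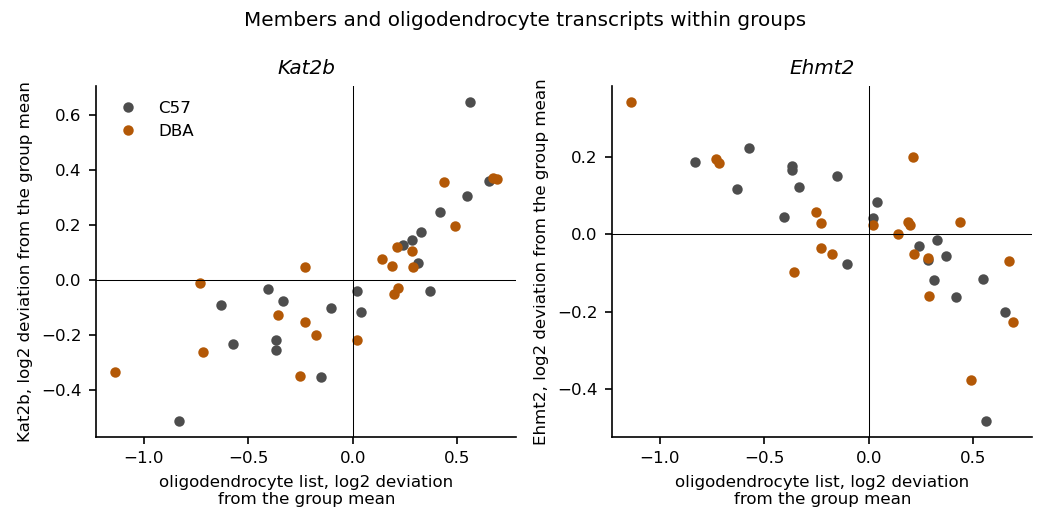
Deviation of each library from its group mean for Kat2b and Ehmt2 (vertical, log2) against that of the myelinating oligodendrocyte list (horizontal, log2), 40 libraries, grey C57 and orange DBA. Kat2b rises with the list (r = 0.811) and Ehmt2 falls (r = -0.765).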

How the data were processed

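Counts per gene were deposited by the authors as whole-number counts for 55471 genes in 40 libraries, 8 groups of 5. Per the labels' protocols, mRNA libraries of a stranded kit were read single-end over 75 nt. Per the submitters' processing notes, bcl2fastq 2.20, cutadapt 1.11, FastQC and the build GRCm38 (mm10) were used. For the aligner, the counter, its strand setting and its treatment of reads that match several genes, nothing is given in the sources used here. Strand matters because 17 members share exon with a gene on the opposite strand and 5 with one on their own.

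The counts were tested with edgeR 4.0.16 (R 4.3.3): TMM scaling (factors 0.905 to 1.09), filterByExpr over the 8 groups (18441 genes), a robust quasi-likelihood fit of all groups with 32 residual degrees of freedom, and Benjamini-Hochberg adjustment over all genes. DESeq2 1.42.0 on all libraries was an alternative. The other alternatives were edgeR fits with DESeq2 size factors, no low-count filter, the compared libraries alone, a replicate block or marker covariates. Further edgeR fits left out the 4 libraries with high Slc17a7, or each library in turn. RPKM is the scaled CPM per kilobase of exon (GENCODE, GRCm38). Depth was 16913124 to 28179071 counts per library. Libraries within groups differed by 5.51 to 141 chi-square per degree of freedom over 80 pairs, so none was treated as a duplicate. The script for the fit was tested on simulated data.

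Named in each comparison were all members past the threshold where at most 8, otherwise the 4 of smallest p in each direction, and where fewer than 3 passed, the 2 of smallest p in each direction. The members and lists were chosen with earlier results of these data known. The sums with near-identical copies, the split by exon length the order of groups without 1 library and the subsets of the marker relations were chosen after seeing the data.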

Additional observations from a re-analysis of the deposited data

Results flagged for a closer look

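For 21 members described by group, each group of 5 libraries was searched for a library far from the others (Dixon's ratio above 0.71), and 11 of 168 sets held one. Chance gives about 1 in 20 sets. DBA male control replicate 4 read 19.05 CPM for Hdac1, where the other 4 libraries ran from 11.76 to 13.78, and 9.472 CPM for Ezh2, where the others ran from 4.375 to 5.68. In C57 female control replicate 4, Hdac1 read 13.72 CPM against 17.33 to 18.75. Hdac9 read 73.47 CPM in DBA male control replicate 3 against 15.86 to 32.27, and 45.79 CPM in DBA female RCF replicate 5 against 27.39 to 29.92.

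The remaining values belong to 3 of the 4 libraries with high Slc17a7 and to C57 male RCF replicate 4. C57 female RCF replicate 4 read 206.2 CPM for Hdac11 against 400.3 to 437.9, and 81.63 CPM for Hdac2 against 68.77 to 72.49. DBA female control replicate 3 read 266.1 CPM for Hdac11 against 445.3 to 486.2, and 73.3 CPM for Hdac9 against 23.91 to 27.93. C57 male control replicate 1 read 71.11 CPM for Kat5 against 77.46 to 80. Kat5 read 90.51 CPM in C57 male RCF replicate 4 against 78.96 to 81.74.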

How the results depend on the processing

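No named difference changed sign under any alternative run. The members passed in DBA female RCF went from 0 to 2 with DESeq2, and those in the female against male comparison of controls from 0 to 1 with DESeq2 and from 0 to 1 over the omissions of single libraries (1 without DBA female control replicate 3). In DBA against C57 controls the 3 calls became 1 with no low-count filter and 1 with the compared libraries alone, and ran from 1 to 8 over single omissions. In DBA against C57 RCF mice the 19 calls became 8 with the marker covariates and ran from 12 to 20 over single omissions. The causes were not tested. With a replicate block, 19 members passed in DBA against C57 RCF mice, 2 in controls and 0 in each other comparison. In 0 of 28 pairs of groups did every same-number correlation exceed 0.1 (range -0.481 to 0.55). Their mean ran from -0.116 (C57 male RCF and control) to 0.201 (C57 male and female controls, where 4 exceeded 0.1). Whether the numbers pair some of the libraries cannot be told from these values.

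Over all genes, DESeq2 called 6, 89, 21 and 54 genes for RCF in C57 males, in C57 females, in male DBA and in female DBA mice, where edgeR called 2, 1, 3 and 3. It called 14 against 4 for the mean of the strata, 9 against 1 for the difference between sexes and 62 against 17 between the sexes of controls. Over the other alternatives and single omissions the edgeR counts for RCF ran from 0 to 5 in C57 males, 0 to 25 in C57 females, 2 to 7 in male DBA and 1 to 5 in female DBA mice, those for the differences of RCF effects from 1 to 3, and those between the sexes of controls from 13 to 31. The marker covariates left 2687 of 4381 genes in DBA against C57 RCF mice. By the longest transcript, Dnmt3a moved from rank 26 to 18 and Kat6b from 40 to 33 per length. The number of libraries and the wide range of dopamine neuron markers limit what small differences can be seen.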
